A study of Mus musculus with 76 samples.

Results

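Caveolae are flask-shaped pits of the plasma membrane that are abundant in adipocytes and endothelial cells. They are built from caveolins, which insert into the inner leaflet of the membrane, and from cavins, which coat the pit from the cytoplasm, while the ATPase EHD2 sits at the neck and the F-BAR protein Pacsin2 bends the membrane. In adipocytes caveolae buffer membrane tension and take part in fatty acid uptake and insulin signaling, and loss of CAV1 or CAVIN1 causes lipodystrophy in humans. The 7 genes described here are *Cav1*, *Cav2*, *Cavin1*, *Cavin2*, *Cavin3*, *Ehd2* and *Pacsin2*, picked by symbol from the 18964 entries of the visceral white adipose tissue (WAT) table and the 16775 entries of the liver table, and each of the 7 had 1 entry in both. They were picked with the genotype difference in WAT already known, so that their WAT values stand here as a description, without a test.

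The mice were females with free access to food. *Fnip2* C/C mice carry a knock-in, made with CRISPR/Cas9 in C57BL/6 embryos, of a T-to-C change in the 3′UTR of *Fnip2*, which encodes a partner of the tumor suppressor folliculin, together with a G-to-C change that disrupts the PAM and that every C allele carries. *Fnip2* T/T mice carry the ancestral T allele in both copies. The number of founders and the age of the sequenced mice are not given in the sources used here. RNA of whole tissue was sequenced as reads close to the poly(A) tail (QuantSeq 3′ libraries), in 4 C/C and 5 T/T WAT libraries and in 5 C/C and 5 T/T livers, each from 1 mouse, and 6 of the 13 mice gave both tissues. Values are normalized counts, which are reads divided by 1 size factor per library, and each tissue was normalized on its own. All changes are given as C/C minus T/T on the log2(normalized count + 1) scale.

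Summed over the listed genes, WAT libraries held 4180209 to 6277644 reads and liver libraries 5583041 to 7523200 reads. The adipokine gene *Adipoq* ranged from 4216 to 21290 in WAT, and the albumin gene *Alb* ranged from 350452 to 520073 in liver but from 29.3 to 257 in WAT. The WAT library of C/C mouse 593 stood apart, with a summed normalized count of ovary markers of 24529 against at most 142 in every other WAT library, and the WAT fit was also run without it. In WAT the RNA numbers of the labels were even in 4 of 4 C/C mice and odd in 5 of 5 T/T mice, so that whatever this numbering stands for cannot be told apart from genotype there. *Fnip2* itself lay between 14.1 and 30.9 in C/C and between 14.5 and 42.6 in T/T WAT, with overlapping groups. In liver it lay between 133 and 197 in C/C and between 49.2 and 134 in T/T, a log2 fold change of 0.63 (limma p = 0.0148, adjusted p = 1.00). A level cannot check a knock-in of single bases.

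The promoters of the genes are shown first, since *Cav1*, *Cav2* and *Cavin3* were lower together in C/C WAT while the libraries of *Cavin1* and *Ehd2* overlapped, and since *Cav2* and *Cav1* are next to each other in the RefSeq gene order. RefSeq (GRCm38.p6) gave windows of 300 bases, 250 before and 50 after an annotated start, for 6 of the 7 genes, with *Cavin3* the exception. The motifs searched on both strands were the GC box GGGCGG, the CCAAT box (its own letters), the TATA box TATAAA, the E-box CACGTG and the cAMP response element TGACGTCA. Of 32851 RefSeq windows of this length, 35.7% held the GC box, 37.4% the CCAAT box, 13.6% the TATA box, 7.15% the E-box and 1.79% the cAMP response element. *Cav1*, *Cavin1* and *Pacsin2* had more than a single window, and a gene is listed if any of its windows held the motif. The shares are per window, so that counts of genes cannot be set against them. The GC box was matched in *Cav1*, *Cav2*, *Cavin1*, *Ehd2* and *Pacsin2*, the CCAAT box in *Cav2*, *Cavin1*, *Cavin2*, *Ehd2* and *Pacsin2*, and the TATA box on the reverse strand in *Cav1*, while the E-box and the cAMP response element were matched in none of the windows of the 6 genes. The match nearest to the start is given for each, 5′ to 3′ along the transcribed strand, with the matched letters or their reverse complement in capitals. The sequences are the GC box of *Cav2* at chr6:17281169-17281198 (plus strand), of *Cav1* at chr6:17306321-17306350 (plus strand), of *Cavin1* at chr11:100970607-100970636 (minus strand), of *Ehd2* at chr7:15967504-15967533 (minus strand) and of *Pacsin2* at chr15:83464591-83464620 (minus strand), and the CCAAT box of *Cavin2* at chr1:51288974-51289003 (plus strand).
Cav2: cccggcggggcgGGGCGGggttcggccagc
Cav1: ccctcccagccaCCGCCCcccgccagcgcc
Cavin1: ctcgcagattccCCGCCCcacagttctggc
Ehd2: ggggcctggggcCCGCCCtgctcgccgctc
Pacsin2: cgggcgcggcggGGGCGGcgcggtcgcggc
Cavin2: tactagatttagCCAATcagaggctgggga
The GC box was thus matched in promoters of genes that were lower in C/C WAT (*Cav1*, *Cav2*) and of genes whose WAT libraries overlapped (*Cavin1*, *Ehd2*, *Pacsin2*). A match is a stretch of letters and not a measured binding site.

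In WAT, the 7 genes fell into a group of 3 that were lower in *Fnip2* C/C mice, *Cav1*, *Cav2* and *Cavin3*, and a group of 4 whose libraries overlapped between the genotypes, *Cavin1*, *Cavin2*, *Ehd2* and *Pacsin2*. All 7 passed the filter of a mean normalized count of 10. Of the 12798 WAT genes tested, 32.1% had a limma adjusted p under 0.05, 17% lower and 15.1% higher in C/C. The 3 genes of the first group were among those lower, which describes the choice of the genes and is no test, since this contrast was known when they were picked. The median log2 fold change was -0.10 over the 7 genes and 0.02 over all genes tested. In bulk tissue, fewer cells of a type and less RNA per cell cannot be told apart.

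*Cav1* encodes the caveolin that adipocytes need to form caveolae. Its normalized counts were 1228, 512, 1391 and 812 in the C/C WAT libraries of mice 590, 593, 599 and 638. They were 2580, 2154, 2725, 2489 and 1938 in the T/T libraries of mice 607, 608, 609, 657 and 658. The highest C/C library lay below the lowest T/T library, and mouse 593 was the lowest of all. The means were 986 ± 399 (SD, n = 4) in C/C and 2377 ± 323 (SD, n = 5) in T/T, so that, on the fitted log2 scale, T/T was 2.57-fold higher, a log2 fold change of -1.36 (standard error 0.27, 95% interval -1.94 to -0.78).

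*Cav2* encodes the caveolin that needs *Cav1* to leave the Golgi. It had normalized counts of 510, 228, 519 and 241 in C/C and of 1036, 1167, 1960, 937 and 718 in T/T, in the same order of mice. The groups did not overlap, and T/T mouse 609 was well above the other T/T libraries. The means were 375 ± 162 (SD, n = 4) and 1164 ± 475 (SD, n = 5), and T/T was 3.15-fold higher, a log2 fold change of -1.66 (standard error 0.32, 95% interval -2.35 to -0.96).

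*Cavin3*, the cavin that binds protein kinase C delta, had normalized counts of 220, 162, 270 and 214 in C/C and of 356, 450, 605, 409 and 358 in T/T. Again each C/C library lay below each T/T library, with mouse 593 lowest and mouse 609 highest. The means were 217 ± 44.2 (SD, n = 4) and 436 ± 102 (SD, n = 5), and T/T was 2.00-fold higher, a log2 fold change of -1.0 (standard error 0.21, 95% interval -1.44 to -0.56). Groups that do not overlap in this direction were seen for 13.8% of the WAT genes tested, and for 12.2% in the other direction. Without mouse 593, the log2 fold changes of *Cav1*, *Cav2* and *Cavin3* were -1.08, -1.45 and -0.87.

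*Cavin1*, the cavin without which caveolae do not form, had normalized counts of 13423, 9128, 10727 and 11836 in C/C and of 8627, 16770, 19361, 8624 and 8221 in T/T. The T/T libraries split, with mice 608 and 609 above every C/C library and mice 607, 657 and 658 below every C/C library. The means were 11279 ± 1811 (SD, n = 4) and 12321 ± 5327 (SD, n = 5), and the log2 fold change was -0.04 (standard error 0.30, 95% interval -0.69 to 0.61).

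*Cavin2*, a phosphatidylserine-binding cavin, had normalized counts of 5721, 2577, 5994 and 8382 in C/C and of 4906, 5748, 6652, 5431 and 4781 in T/T. The lowest and the highest library were both C/C, mice 593 and 638. The log2 fold change was -0.07 (standard error 0.30, 95% interval -0.71 to 0.57). Without mouse 593 it was 0.27.

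*Ehd2* had normalized counts of 2121, 1231, 2049 and 1810 in C/C and of 1527, 2321, 3035, 1612 and 1368 in T/T. As for *Cavin1*, T/T mice 608 and 609 were the highest, and the other T/T libraries lay among or below most C/C libraries. The log2 fold change was -0.10 (standard error 0.26, 95% interval -0.66 to 0.47).

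*Pacsin2* was the least read of the genes in WAT, with 16 to 48 reads per library. Its normalized counts were 24.7, 22.5, 35.8 and 30.5 in C/C and 39.4, 22.4, 17.9, 27.8 and 28.0 in T/T. The groups overlapped over most of their range, and the log2 fold change was 0.09 (standard error 0.29, 95% interval -0.54 to 0.72). The intervals of these 4 genes reach at least -0.54 below and 0.47 above 0, so that a lack of change was not shown.

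**Figure D1:**
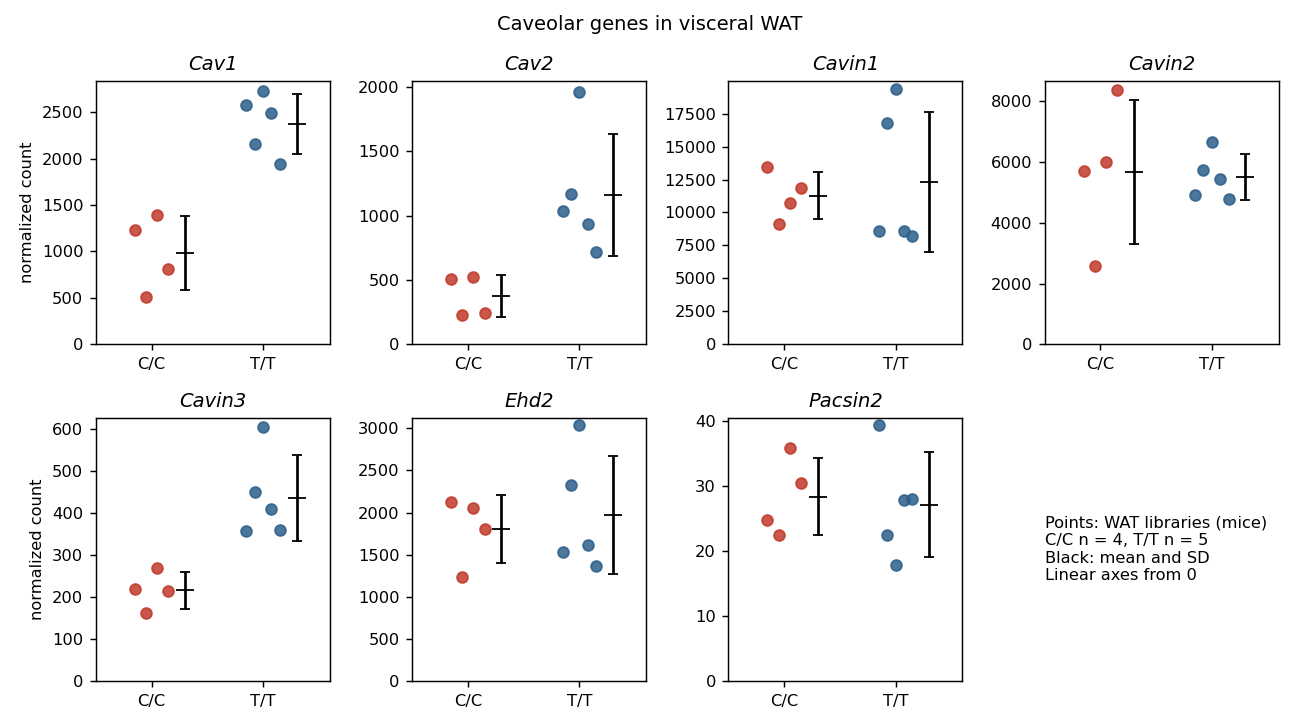
Normalized counts (linear y axes from 0) of the 7 caveolar genes in WAT, 1 point per mouse, C/C (n = 4) in red and T/T (n = 5) in blue, with the mean and SD in black. All C/C points lie below all T/T points for *Cav1*, *Cav2* and *Cavin3*, and the groups overlap for *Cavin1*, *Cavin2*, *Ehd2* and *Pacsin2*.

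The mouse numbers of the labels fall into a set under 610 and a set over 630, and the change is given within each as a description. For *Cav1*, *Cav2* and *Cavin3* every C/C library lay below every T/T library, so that their sign within a set was fixed in advance. *Cav1* differed by -1.37 under 610 (3 C/C and 3 T/T mice) and by -1.43 over 630 (1 C/C and 2 T/T mice). *Cav2* differed by -1.76 in both sets, and *Cavin3* by -1.11 and -0.83. *Cavin1* (-0.36 and 0.49), *Cavin2* (-0.36 and 0.72) and *Ehd2* (-0.34 and 0.28) had opposite signs in the sets, and *Pacsin2* had 0.11 and 0.12.

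Ratios of reads between genes of the same library do not depend on the size factors. *Cavin3* had 0.0164 to 0.0252 reads per *Cavin1* read in C/C WAT and 0.0269 to 0.0474 in T/T, without overlap. *Cav1* had 0.0561 to 0.130 reads per *Cavin1* read in C/C and 0.128 to 0.299 in T/T, where 1 library of each genotype, C/C mouse 599 and T/T mouse 608, crossed over. *Cav1* and *Cavin3* were lower relative to *Cavin1* in most C/C libraries. The ratios hold the WAT values with which the genes were picked, so that they describe the same contrast and are no further test of it. *Cav2* had 0.297 to 0.446 reads per *Cav1* read in C/C and 0.370 to 0.719 in T/T, and *Ehd2* had 0.135 to 0.191 and 0.138 to 0.187 reads per *Cavin1* read, both with overlap. A ratio of 3′ reads is not a ratio of proteins or of molecules.

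**Figure D2:**
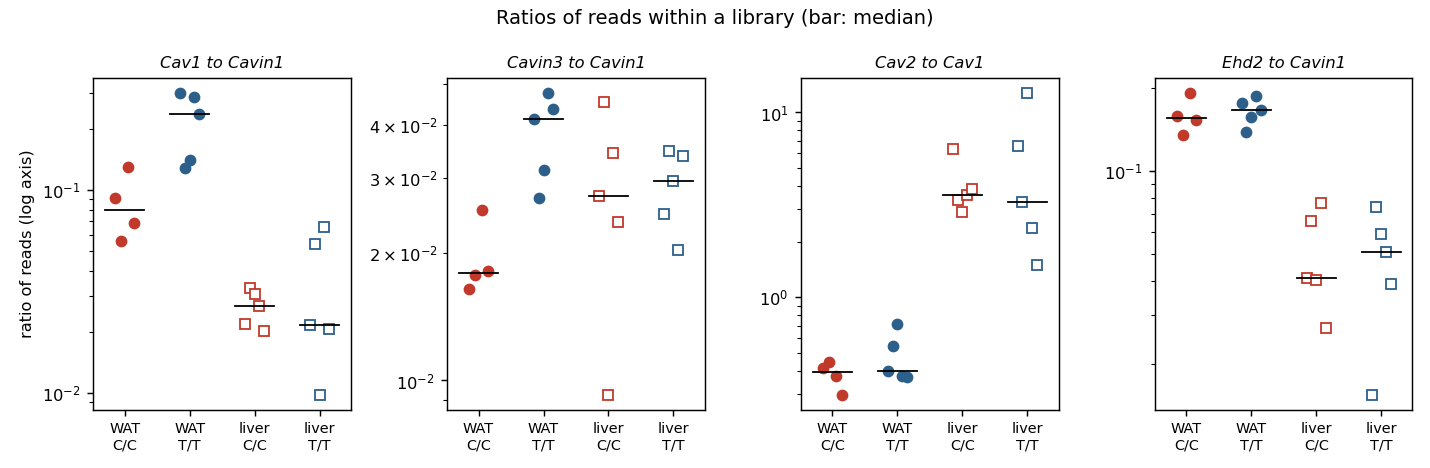
Ratio of reads of 1 gene to reads of another in the same library (log y axes), 1 point per mouse by tissue (filled, WAT; open, liver) and genotype (red, C/C; blue, T/T), with the group median as a bar. *Cavin3* to *Cavin1* separates the WAT genotypes, *Ehd2* to *Cavin1* does not, and *Cav2* to *Cav1* spans 0.297 to 0.719 in WAT against 1.5 to 12.7 in liver.

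After removing the genotype means, the genes varied together in WAT to different degrees. This is given as Pearson r of log2 values over the 9 libraries, which share their depth and tissue composition, as a description without a p. Mouse 593, with the high ovary markers, was kept and was the lowest C/C library for each of these genes. T/T mice 608 and 609 were the highest libraries for *Cavin1*, *Cavin3* and *Ehd2*. Few libraries can thus carry these values, and r without them is not given. *Ehd2* had r = 0.93 with *Cavin3*, 0.92 with *Cavin1* and 0.86 with *Cav2*, and among 12797 other genes these ranked 29, 41 and 160. *Cav1* had r = 0.80 with *Cav2* (rank 236), 0.69 with *Cavin3* (rank 613), 0.63 with *Cavin2* (rank 915), 0.62 with *Ehd2* (rank 991), 0.30 with *Pacsin2* (rank 3444) and 0.29 with *Cavin1* (rank 3485). Rank 1 is the most alike, so that many genes outside this group were more like *Cav1* than *Cav2* was. The genes most like *Cav1* were *Upf3a* (nonsense-mediated decay, r = 0.96), *Abraxas1* (a BRCA1 complex subunit, 0.96), *Hoxc9* (a homeobox factor, 0.95), *Rassf10* (0.95) and *Cpeb1* (a cytoplasmic polyadenylation factor, 0.95). *Pacsin2* went the other way from *Cavin1* (r = -0.66).

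**Figure D3:**
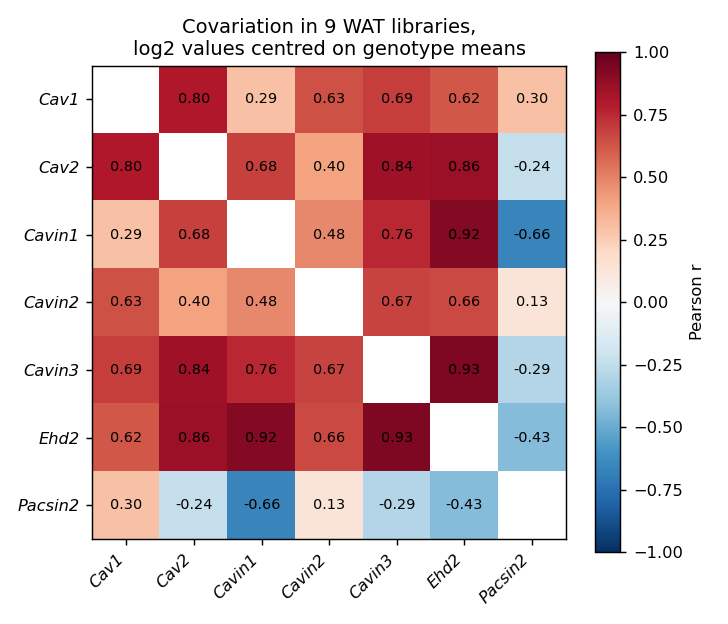
Pearson r between each pair of the 7 genes over 9 WAT libraries (color scale from -1 to 1, no axis units), from log2 values centred on the genotype means. *Ehd2*, *Cavin3*, *Cav2* and *Cavin1* are positively related throughout (0.68 to 0.93), and *Pacsin2* is negatively related to *Cavin1* (-0.66).

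Markers of other cell types and of adipocytes were measured beside these genes. Counts of called markers stand against the 17% of all WAT genes tested that were called lower and the 15.1% called higher. Of 12 adipocyte markers, 7 were called lower and 0 higher in C/C WAT, with a median log2 fold change of -1.10. Their summed normalized count lay between 129060 and 358977 in C/C and between 282838 and 497162 in T/T. Most of that sum came from *Car3* (means 96684 in C/C and 184657 in T/T) and *Cfd* (127997 and 85213), and neither was called. Without mouse 593, 5 of the 12 markers were called lower and 1 higher. Of 15 endothelial markers, 5 were called lower and 2 higher, with a median of -0.01 and sums of 4638 to 7815 in C/C and 6176 to 8484 in T/T. None of the adipocyte or endothelial markers was at 0 in any WAT library. Smooth muscle and pericyte markers had 2 lower and 1 higher of 8, with a median log2 fold change of 0.76 (sums 5313 to 12505 against 3716 to 12109), fibroblast markers 1 and 2 of 8 with a median of 0.15 (9604 to 19024 against 12259 to 14058), macrophage markers 3 and 1 of 8 with a median of 0.01 (2940 to 6143 against 2827 to 4578) and mesothelial markers 0 of 7 tested, with a median of 0.66 (475 to 1322 against 264 to 1387). Being called lower fixes the sign of the 7 adipocyte and 5 endothelial markers, so that sharing it with *Cav1*, *Cav2* and *Cavin3* carries no information. The median of the endothelial list was near 0 (-0.01), and markers of both lists were also higher in C/C. The part of either cell type in these values was not tested.

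The wider caveolar and coat genes were taken as lists of 46 genes in all, of which 43 were tested in WAT. In C/C, 10 were called lower and 3 higher, where 17% of all WAT genes tested were called lower and 15.1% higher. In both directions together the share called was near the 32.1% of all genes, and most of the calls were lower. The median log2 fold change of the 43 genes was -0.19, against 0.02 over all WAT genes tested. The counts of the single lists stand against the same shares. Among the caveolar relatives, 1 of 4 tested was called lower, *Pacsin3* (117 ± 17.9 in C/C and 183 ± 31.7 in T/T, SD, n = 4 and 5, log2 fold change -0.64, limma adjusted p = 0.0215), an F-BAR protein of the Pacsin family, whose call was lost without mouse 638 (adjusted p = 0.0519) or 607 (0.0546). The ATPases *Ehd1*, *Ehd3* and *Ehd4* did not pass (log2 fold changes -0.08, -0.29 and -0.33), although the groups of *Ehd4* did not overlap and it was called lower with quantile normalization (limma adjusted p = 0.0454) and DESeq2 (adjusted p = 0.0484). The muscle genes *Cav3* and *Cavin4* and the neuronal *Pacsin1* were below the filter.

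Proteins that have been found in caveolae had 3 of 10 genes called lower and 0 higher. These were *Pdgfrb*, a growth factor receptor of pericytes and fibroblasts (log2 fold change -1.93, limma adjusted p = 0.00147), *Nos3*, the endothelial nitric oxide synthase (-0.98, adjusted p = 0.0234), and *Aoc3*, an amine oxidase of adipocytes and vessels (-0.83, adjusted p = 0.0347). *Pdgfrb* had means of 26.3 ± 7.47 (SD, n = 4) in C/C and 109 ± 53.0 (SD, n = 5) in T/T. *Nos3* and *Aoc3* lost their calls without mouse 593 (adjusted p = 0.0601 and 0.0910), and also without mouse 638, 607 or 657, and *Aoc3* without 608 or 609 and with library weights too (0.0879). The insulin receptor gene *Insr* had 0.53 (adjusted p = 0.0573), and was called higher without mouse 593 (0.66, adjusted p = 0.0272) or 599 (0.0494), with a minimum mean of 50 (0.0489), with the term for mouse numbers (0.0425) and with DESeq2 (0.0282). The fatty acid transporter *Cd36* had 0.05 (adjusted p = 0.916).

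Among the 10 genes mutated in inherited lipodystrophies, 4 were called lower and 0 higher. *Akt2*, a kinase of insulin signaling, had means of 146 ± 95.3 (SD, n = 4) in C/C and 631 ± 157 (SD, n = 5) in T/T (log2 fold change -2.34, limma adjusted p = 0.00174). The lipid droplet coat gene *Plin1* had -1.65 (adjusted p = 0.00385) and the hormone-sensitive lipase gene *Lipe* -1.11 (adjusted p = 0.0284), while *Zmpste24*, the lamin A protease and the fourth, had -0.85 and was the smallest of the 4 (adjusted p = 0.00951). *Lipe* lost its call without mouse 593 (adjusted p = 0.0693), as it did without mouse 638, 608 or 657 and with edgeR (0.0650), and *Pparg* was called higher without mouse 593 (0.68, adjusted p = 0.0371). *Plin1*, *Lipe*, *Cidec* and *Pparg* are also in the adipocyte marker list.

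Clathrin coats, the other main route of endocytosis, had 2 of 9 genes called lower and 2 higher. *Picalm*, a clathrin assembly protein, had -1.14 (limma adjusted p = 0.00289) and the heavy chain gene *Cltc* -0.76 (adjusted p = 0.0073). The adaptor subunits *Ap2s1* (1.23, adjusted p = 0.00742) and *Ap2m1* (0.82, adjusted p = 0.00861) were higher. Of 6 raft, dynamin and filamin genes only *Dnm1*, a dynamin known from neurons, was called (168.7 ± 67.6 in C/C and 69.5 ± 14.5 in T/T, SD, n = 4 and 5, log2 fold change 1.21, adjusted p = 0.00451), and 0 of 4 kinases that phosphorylate caveolin were called. Over the lists, 7 were called lower and 5 higher without mouse 593, and 6 were called lower without mouse 638, against 10 and 3 with every mouse. Over all genes, 4111 were called with every mouse, 3761 without mouse 593 and 3039 without mouse 638.

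In liver the genotype difference of the 7 genes was not used to pick them, and none was called. *Cav1* (mean normalized count 7.96) and *Cavin3* (8.01) fell below the filter, with 3 to 13 reads per library each, and 0 of the other 5 passed. Of the 11710 liver genes tested 0 passed limma (0%), edgeR or DESeq2, and 231 (1.97%) had an unadjusted limma p under 0.05, as had 249 with edgeR and 225 with DESeq2, none of them among the 5. Groups without overlap were seen for 0.137% of liver genes with C/C below and 0.111% with C/C above, and the groups overlapped for all 7 genes.

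*Cav2* had normalized counts of 46.0, 24.4, 26.4, 25.9 and 24.3 in the C/C livers of mice 590, 591, 592, 638 and 639. In the T/T livers of mice 607, 608, 657, 658 and 659 they were 43.4, 34.4, 46.3, 34.0 and 11.1. The lowest liver was T/T, and 4 of the 5 C/C livers lay within 24.3 to 26.4. The means were 29.4 ± 9.32 (SD, n = 5) in C/C and 33.9 ± 13.8 (SD, n = 5) in T/T. The log2 fold change was -0.10 (standard error 0.32, 95% interval -0.78 to 0.58, limma adjusted p = 1.00), and the exact two-sided permutation p was 0.786, where 252 groupings allow a smallest p of 0.00794.

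*Cavin1* had normalized counts of 331, 220, 295, 271 and 313 in C/C livers and of 306, 193, 373, 216 and 358 in T/T livers, in the same order. Both the lowest and the highest were T/T, and the log2 fold change was 0.02 (standard error 0.18, 95% interval -0.36 to 0.40, exact permutation p = 0.937). *Cavin2* had 395, 517, 397, 367 and 435 in C/C and 401, 309, 433, 377 and 513 in T/T livers. Its groups spanned nearly the same range, with a log2 fold change of 0.06 (standard error 0.14, 95% interval -0.23 to 0.36, exact permutation p = 0.730). *Ehd2* lay between 8.45 and 20.7 in C/C and between 4.72 and 21.9 in T/T livers, with 5 to 20 reads per library (log2 fold change 0.14, 95% interval -0.61 to 0.89, exact permutation p = 0.746). *Pacsin2* lay between 48.3 and 68.8 and between 34.9 and 79.1 (log2 fold change -0.03, 95% interval -0.46 to 0.39, exact permutation p = 0.889). Each of these 4 genes had a limma adjusted p of 1.00.

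At 3 to 13 reads, *Cav1* lay between 6.34 and 9.12 in C/C and between 3.66 and 14.3 in T/T livers, and *Cavin3* between 2.73 and 9.96 and between 4.39 and 12.1. Fitted without the filter, *Cav1* had a log2 fold change of -0.07 (95% interval -0.82 to 0.68, exact permutation p = 0.825) and *Cavin3* of -0.13 (95% interval -0.93 to 0.67, exact permutation p = 0.722). Changes of a size within these intervals were not excluded. The liver intervals of *Cavin2* and *Cavin1* were the narrowest of the 7.

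**Figure D4:**
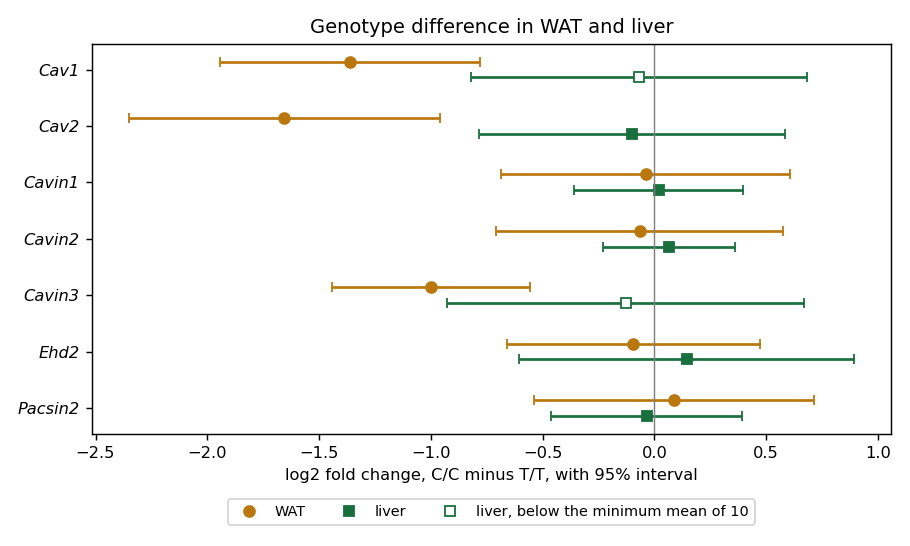
Log2 fold change, C/C minus T/T (x axis, log2 units), of the 7 genes in WAT (circles) and liver (squares, open where the gene was below the filter), with 95% intervals as bars. The WAT intervals of *Cav1*, *Cav2* and *Cavin3* lie below 0, and every liver interval spans 0.

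The difference between the tissues was taken as an interaction, the WAT change minus the liver change, over the 10404 genes kept in both tables, of which 29.2% passed. Because it holds the WAT contrast it is a description for these genes. *Cav2* had -1.55 (standard error 0.50, 95% interval -2.61 to -0.50) and passed, so that its change in WAT was the more negative. *Cavin1* had -0.06 (95% interval -0.78 to 0.66), *Cavin2* -0.13 (-0.80 to 0.54), *Ehd2* -0.24 (-1.15 to 0.67) and *Pacsin2* 0.12 (-0.58 to 0.83), and none of these 4 passed. With library weights *Cav2* had -1.25 and no longer passed. *Cav1* and *Cavin3* could not be tested with the filter in place.

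The pathway lists were without calls in liver as well, with 0 of 36 tested genes passing and 0 at an unadjusted limma p under 0.05. The lowest p of each list belonged to *Cd36* (log2 fold change -0.26, p = 0.128), *Fyn* (0.29, p = 0.237), *Ap2a2* (0.13, p = 0.246), *Pacsin3* (-0.13, p = 0.286), *Pcyt1a* (0.11, p = 0.379) and *Flna* (0.06, p = 0.680), each with a limma adjusted p of 1.00. The marker lists had 0 calls in liver too, with summed endothelial markers of 2488 to 2712 in C/C and 2382 to 2894 in T/T.

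Over the 10 livers, the log2 values of the 5 genes that passed the filter gave 10 pairs, and 0 had a Benjamini-Hochberg adjusted permutation p under 0.05. *Ehd2* and *Pacsin2* had r = 0.63 (permutation p = 0.0565, adjusted 0.284) and rho = 0.52 (p = 0.133, adjusted 0.445), and r = -0.11 without the 2 livers farthest from the median of *Ehd2*. Leaving out the farthest livers narrows the range of the first gene, so that a weaker r cannot show what a relation rested on. *Cavin1* and *Pacsin2* had r = -0.61 (permutation p = 0.0569, adjusted 0.284) and rho = -0.58 (p = 0.0885, adjusted 0.445), and r = -0.32 without the 2 farthest livers. *Cavin1* and *Cavin2* had r = 0.46 (permutation p = 0.187, adjusted 0.469) and rho = 0.52 (p = 0.133, adjusted 0.445), and r = -0.11 without the 2 farthest livers. Without C/C mouse 591 that pair alone passed (r = 0.84, adjusted permutation p = 0.0271).

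All 7 genes were read in every library of both tissues, at different levels. Because the tables were normalized separately, levels are given in RPM, the reads of a gene per 1000000 reads summed over the listed genes of its library. They are a description, over 9 WAT and 10 liver libraries and per gene only. *Cav1* had a median of 407 RPM (118 to 626) in WAT and 1.10 (0.537 to 2.09) in liver, 369-fold apart. *Ehd2* had 375 (284 to 623) and 2.12 (0.665 to 3.22), 177-fold apart, and *Cavin3* had 75.3 (37.4 to 124) and 1.20 (0.415 to 1.88), 63.0-fold apart. Every WAT library was above every liver for these 3 genes.

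*Cavin1* had a median of 2233 RPM (1728 to 3975) in WAT and 43.2 (29.7 to 56.0) in liver, 51.7-fold apart. *Cav2* had 151 (49.3 to 402) and 4.50 (1.74 to 7.04), 33.5-fold apart, and *Cavin2* had 1248 (595 to 1712) and 60.4 (47.5 to 80.2), 20.7-fold apart, again without overlap. *Pacsin2*, which also acts outside caveolae, was the exception, with 5.89 (3.67 to 9.56) in WAT and 8.58 (4.92 to 11.6) in liver, a ratio of 0.687 with overlapping libraries. Ratios of reads also differed between the tissues. There were 0.282 to 0.708 *Cavin2* reads per *Cavin1* read in WAT and 1.16 to 2.35 in liver. For *Ehd2* there were 0.135 to 0.191 reads per *Cavin1* read in WAT and 0.0154 to 0.0763 in liver.

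**Figure D5:**
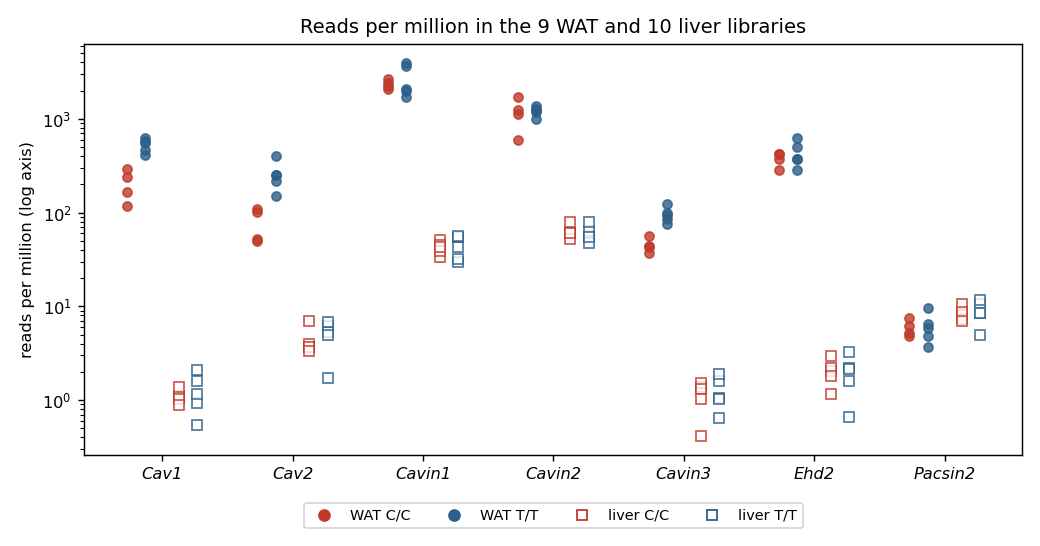
Scaled reads (RPM, log y axis) of the 7 genes, 1 point per library, in WAT (filled circles) and liver (open squares), with C/C in red and T/T in blue. Each WAT library is above each liver for every gene but *Pacsin2*, whose medians are 5.89 in WAT and 8.58 in liver.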

How the data were processed

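RNA of livers and visceral WAT of female mice was sequenced from the 3′ end (QuantSeq FWD kit, Illumina NextSeq), with an input of 250 ng for livers and 500 ng for WAT. The labels list 76 run samples, 4 per mouse, and each mouse has 1 column, grouped by genotype. 1 WAT column that no label describes was not used. The authors deposited 1 table per tissue of signal values, which are gene counts divided by 1 size factor per library. The submitters' processing notes name FastQC 0.11.9, HISAT2, SAMtools 1.12, HTSeq, DESeq2 and GRCm39, and the counting options and the test are not given in the sources used here. Each deposited value was a whole multiple of its library's step, so that whole reads were recovered for 100.0% of 338426 values (tolerance 1e-06).

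The values were fitted per tissue on log2(value + 1) with limma 3.58.1 in R 4.3.3 (trend and robust), over genes with a mean of at least 10, and called at a Benjamini-Hochberg adjusted p under 0.05. The script was tested on simulated data. Liver means of single genes were tested by exact permutation (two-sided), and pairs of genes with 100000 permutations (scipy 1.17.1). Replicate libraries differed beyond counting error (chi-square per degree of freedom of at least 14.2 in 16 WAT pairs and 7.63 in 20 liver pairs), and each is a separate mouse. Reads are not independent molecules.

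The genes and lists were chosen with earlier results of these data known. Besides the 7 genes, the text names up to 3 genes lower and 3 higher in WAT with the largest change and the gene with the lowest p in liver of each list, *Adipoq*, *Alb* and *Fnip2*, and the 5 genes most like *Cav1*. That likeness was not computed in liver, where *Cav1* was below the filter. *Zmpste24*, *Ehd1*, *Ehd3*, *Ehd4*, *Cav3*, *Cavin4*, *Pacsin1*, *Insr*, *Cd36* in WAT, *Cidec*, *Pparg*, *Car3* and *Cfd* were named after their values were seen. 6 mice gave both tissues, which pairs those samples. The correlation of their deviations from the group means over 10404 genes lay between -0.20 and 0.16 per mouse. Promoter windows come from RefSeq for GRCm38.p6, another build than that of the processing notes.

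Alternatives were pseudocounts of 0.5 and 10, library weights, quantile normalization or equal totals in place of the size factors, a filter at a mean of 50 or none, the set of mouse numbers (under 610 or over 630) as a term, DESeq2 1.42.0 and edgeR 4.0.16 on the recovered reads, the mouse as a replicate block, and each mouse left out in turn. A term for even against odd RNA numbers in liver and the marker counts without mouse 593 were added after seeing the data.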

Additional observations from a re-analysis of the deposited data

Results flagged for a closer look

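*Cav2* had a normalized count of 46.0 in the liver of C/C mouse 590, while the other 4 C/C livers lay between 24.3 and 26.4, and the gap was 0.901 of the range of the group, above Dixon's critical value of 0.71 for 5 samples. It was 1 of 28 groups of values tested in this way, and chance flags about 1 in 20. The change of *Cav2* differed between the tissues, with an interaction of -1.55 on the log2 scale (95% interval -2.61 to -0.50), which holds the WAT contrast with which the genes were picked.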

How the results depend on the processing

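The WAT log2 fold changes of *Cav1*, *Cav2* and *Cavin3* over the 19 WAT alternatives run were -1.56 to -1.08, -1.85 to -1.26 and -1.11 to -0.79, a description of the contrast with which the genes were picked. The weakest value of *Cav1*, -1.08, was the fit without mouse 593. Of all genes, 3010 to 4802 were called in WAT and 0 in liver, where 0 of the 7 genes were called under each of the 21 alternatives, the added term for RNA numbers included.

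The count of the 7 genes called in the interaction was 1, and it was 2 with no filter (*Cav1*, at -1.29, and *Cav2*), 0 with a minimum mean of 50, which removed *Cav2*, and 0 with library weights. With no filter *Cavin3* had -0.87 and did not pass (limma adjusted p = 0.142). *Cav1* and *Cavin3* had only 3 to 13 reads per liver library. With the mouse as a replicate block the count was 1, and the block changed no other call among these genes. Leaving out each mouse in turn was not run for the interaction. Scaling to the same total moved the median interaction of all genes from -0.04 to -0.10, and quantile normalization moved it to 0.07.

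Leaving out each mouse in turn gave 6 to 12 list genes called lower and 3 to 5 called higher in WAT, and 0 to 1 liver pairs. Among genes not called, library weights turned *Cavin1* (0.14), *Cavin2* (0.058) and *Ehd2* (0.14) in WAT, *Cav2* in liver (0.010), and *Cavin1* (0.053), *Cavin2* (0.023) and *Ehd2* (0.024) in the interaction. edgeR and DESeq2 turned *Cavin2* in WAT (0.017 and 0.045) and *Cavin1* in liver (-0.023 and -0.018). Leaving out 1 mouse gave signs of either kind, in WAT for *Cavin1* (-0.16 to 0.15), *Cavin2* (-0.29 to 0.27), *Ehd2* (-0.21 to 0.078) and *Pacsin2* (-0.044 to 0.23), and in liver for *Cav2* (-0.45 to 0.044), *Cavin1* (-0.11 to 0.12), *Cavin2* (-0.029 to 0.15), *Ehd2* (-0.15 to 0.35) and *Pacsin2* (-0.21 to 0.079). The cause was not tested. The fewest reads were 3 per library for *Cav1* and *Cavin3* and 5 for *Ehd2* in liver, and 16 for *Pacsin2* in WAT.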
